A study of Mus musculus with 16 samples.

Results

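The 9 genes described here were the embryonic globins *Hba-x*, *Hbb-y* and *Hbb-bh1*, the alpha globins *Hba-a1* and *Hba-a2*, the erythroid transcription factors *Gata1* and *Klf1*, the erythropoietin receptor gene *Epor*, and *Alas2*. They were chosen by gene symbol, and all 9 were present among the 26411 genes counted. The first blood of the mouse embryo is made in the yolk sac as primitive erythroid cells, large nucleated cells that enter the circulation when the heart begins to beat and mature there as a cohort. Haemoglobin is a tetramer of alpha-type and beta-type chains. Primitive cells use zeta (*Hba-x*) beside the alpha chains, and beta-h1 (*Hbb-bh1*) and epsilon-y (*Hbb-y*) on the beta side, and as they mature they are known to shift from zeta to alpha and from beta-h1 to epsilon-y. GATA1 and KLF1 are transcription factors that activate globin and other red cell genes, EPOR passes on the survival signal of erythropoietin, and ALAS2 carries out the first step of haem synthesis in red cells.

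RNA was sequenced from 16 single whole mouse embryos at E9.5, with 4 in each of 4 genotypes. Wild-type embryos were *Kat6a*+/+*Kat6b*+/+. *Kat6a*-/-*Kat6b*+/+ embryos lacked the histone acetyltransferase KAT6A, *Kat6a*+/+*Tg(Kat6b)* embryos carried extra copies of the related gene *Kat6b*, and *Kat6a*-/-*Tg(Kat6b)* embryos combined both. All embryos shared a hybrid FVB and BALB/c background, and the transgene, several copies of a bacterial artificial chromosome, was studied in a single mouse line. The *Kat6a* null allele lacks internal exons only, so the count of the whole gene did not check it, at 199 ± 16.5 CPM in wild-type and 202 ± 15.2 CPM in *Kat6a*-/-*Kat6b*+/+ embryos (mean ± SD, n = 4). CPM are counts scaled to a common library size with edgeR's TMM factors. *Kat6b* was at 42.6 to 51.0 CPM in the 8 embryos without the transgene and at 155 to 227 CPM in the 8 with it. An embryo's library held 14407277 to 45665680 counts in genes. Wild-type embryos came from litters 801, 803, 2597 and 2598, *Kat6a*-/-*Kat6b*+/+ embryos from 801 and 803, *Kat6a*+/+*Tg(Kat6b)* embryos from 2597 and 2598, and *Kat6a*-/-*Tg(Kat6b)* embryos from 483 and 498 only. Litter and genotype therefore cannot be told apart for *Kat6a*-/-*Tg(Kat6b)* embryos.

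The labelled tissue, whole embryo, was checked against lists of marker genes. The summed level of 10 genes of the embryo body was 556 to 646 CPM in every embryo, and 7 of 10 trophoblast markers had at most 3 counts in every embryo. The trophoblast list as a whole summed to 19.7 to 24.7 CPM in wild-type embryos. Its sums were 9.81 to 15.5 CPM for *Kat6a*-/-*Kat6b*+/+, 12.1 to 24.7 CPM for *Kat6a*+/+*Tg(Kat6b)* and 24.6 to 33.3 CPM for *Kat6a*-/-*Tg(Kat6b)*. Within the list, *Hand1* had an average log2 CPM of 4.36 and *Ascl2* of -1.39. The sums therefore mostly follow the single gene *Hand1*, and their differences between genotypes do not measure trophoblast content. Markers of the yolk sac endoderm and liver summed to 15.9 to 57.4 CPM in wild-type embryos, with *Apoc2* at 3 counts or fewer in every embryo. The sums were 10.6 to 18.6 CPM for *Kat6a*-/-*Kat6b*+/+, 5.98 to 50.9 CPM for *Kat6a*+/+*Tg(Kat6b)* and 41.9 to 54.7 CPM for *Kat6a*-/-*Tg(Kat6b)*. Of this list, *Afp* had the highest average log2 CPM among the genes tested, at 4.49, followed by *Rbp4* at 2.19. These sums therefore lean on the single gene *Afp*, and their differences between genotypes do not measure yolk sac content. The part of attached yolk sac in the erythroid levels was not tested. In whole embryos, fewer blood cells and less RNA of a gene per blood cell cannot be told apart.

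The globin genes of the embryo lie in 2 clusters. On GRCm39, *Hba-x* is on chromosome 11 from 32226400 to 32228116, followed by *Hba-a1* (32233186 to 32234504) and *Hba-a2* (32246168 to 32247320), all on the plus strand. *Hbb-y* (103500956 to 103502423) and *Hbb-bh1* (103490844 to 103492371) are on the minus strand of chromosome 7, next to the adult genes *Hbb-bs* (103475730 to 103482989) and *Hbb-bt* (103461727 to 103465047). *Klf1* is on chromosome 8 (85628557 to 85631934), *Epor* on chromosome 9 (21870192 to 21874879), and *Gata1* (7825499 to 7844310) and *Alas2* (149330371 to 149353634) on the X chromosome. Each globin gene has 3 exons in its GENCODE transcript.

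How far reads can separate the globins follows from their sequence. *Hba-a1* and *Hba-a2* have coding sequences of 429 bases that differ at 1 position, C381T, counted from 1 at the first coding base of *Hba-a1* and then *Hba-a2*, an identity of 99.8%. Coding bases 361 to 401 of both genes are shown with that base in capitals, and the same bases of *Hba-x* with capitals at the 20 of 41 that differ from *Hba-a1*:

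Hba-a1: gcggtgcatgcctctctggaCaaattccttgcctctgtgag

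Hba-a2: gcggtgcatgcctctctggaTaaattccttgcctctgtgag

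Hba-x: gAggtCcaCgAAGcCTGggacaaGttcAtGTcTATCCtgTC

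Of all windows of 66 bases of the *Hba-a1* transcript, 76.7% also occurred in *Hba-a2*, and 88.7% of those of *Hba-a2* occurred in *Hba-a1*. The split of counts between *Hba-a1* and *Hba-a2* is therefore uncertain, and their sum is used in the ratio below. *Hba-x* shared no such window with either gene and matched 62.0% of the coding bases of *Hba-a1*. *Hbb-y* and *Hbb-bh1* matched at 76.4% of 444 coding bases and shared no window of 66 bases with each other or with the adult beta genes. Their coding bases 361 to 401 are shown with the 5 bases that differ between them in capitals:

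Hbb-y: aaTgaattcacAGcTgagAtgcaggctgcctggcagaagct

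Hbb-bh1: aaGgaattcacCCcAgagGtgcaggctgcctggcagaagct

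Promoters were read from the RefSeq table of 32851 promoters, whose build is GRCm38.p6, and placed on GRCm39 by exact match. The table held 8 of the 9 genes, all but *Hbb-bh1*. The 250 bases before each start were searched on both strands for GATAA, the core letters that GATA factors bind, and for CCNCNCCC, the letters of the KLF1 site. Matches of the 2 motifs were counted separately and may share an end base. GATAA or its complement was found in 7 of 8, all but *Gata1*, and in 22.6% of all promoters. CCNCNCCC was found in *Hba-x*, *Epor*, *Gata1* and *Alas2*, 4 of 8, and in 45.9% of all promoters. A match describes letters, and binding was not measured. The CCNCNCCC match of *Alas2* lies outside the bases printed. Promoter bases of *Hbb-y* (chr7:103502424-103502614, minus strand), *Epor* (chr9:21874880-21875072, minus strand) and *Alas2* (chrX:149330213-149330370, plus strand) are printed 5′ to 3′ as examples from a globin, the receptor and the haem enzyme, with motif letters in capitals, and end where the first GENCODE exon begins:

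Hbb-y: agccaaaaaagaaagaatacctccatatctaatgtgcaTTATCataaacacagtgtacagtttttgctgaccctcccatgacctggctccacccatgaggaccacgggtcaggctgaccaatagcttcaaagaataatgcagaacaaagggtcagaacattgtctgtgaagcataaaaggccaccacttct

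Epor: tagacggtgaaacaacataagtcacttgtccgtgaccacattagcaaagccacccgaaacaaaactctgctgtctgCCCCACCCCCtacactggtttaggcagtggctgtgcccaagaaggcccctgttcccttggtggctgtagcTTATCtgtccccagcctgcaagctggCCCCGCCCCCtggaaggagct

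Alas2: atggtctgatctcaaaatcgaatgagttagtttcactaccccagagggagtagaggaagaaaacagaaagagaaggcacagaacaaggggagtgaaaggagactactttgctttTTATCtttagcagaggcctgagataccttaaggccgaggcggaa

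The corresponding GATAA stretches of *Hba-x* (chr11:32226488-32226517) and *Hba-a1* (chr11:32233485-32233514) are 30 bases each. They precede the RefSeq start but, unlike the stretches above, lie inside the GENCODE bounds of their genes. They are shown because these are the zeta and alpha genes whose ratio is compared between genotypes. The promoters of *Hba-a1* and *Hba-a2* were identical over the 247 bases that align at an offset of 3.

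Hba-x: gctctGATAAcaggctccaccctgcaagcc

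Hba-a1: caactGATAAggattccctgcacccagggg

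The 5 globin members were among the most abundant transcripts of the whole embryo. Compared per length as RPKM, which are CPM divided by the listed gene length in kilobases, wild-type embryos had *Hbb-y* at 2296 ± 505, *Hba-x* at 2129.9 ± 474, *Hbb-bh1* at 1687 ± 351, *Hba-a1* at 823 ± 184 and *Hba-a2* at 536 ± 100 (SD, n = 4). These levels ranked 4, 5, 9, 32 and 71 among all 26411 genes. *Alas2* was far lower at 22.7 ± 6.33 RPKM (rank 3670), followed by *Klf1* at 5.49 ± 1.21 (rank 8761), *Epor* at 3.23 ± 0.858 (rank 10174) and *Gata1* at 2.68 ± 0.362 (rank 10650). The order held inside each of the 16 embryos for 6 of the 8 neighbouring pairs. *Klf1* was above *Epor* in 14 embryos and *Epor* above *Gata1* in 15. Across wild-type embryos the RPKM ranges of *Hbb-y* and *Hba-x*, *Hba-x* and *Hbb-bh1*, *Hba-a1* and *Hba-a2*, *Klf1* and *Epor*, and *Epor* and *Gata1* overlapped, although within single embryos the first 3 of these pairs kept 1 order throughout. Together the 5 globins took 0.349% to 0.550% of the counts of wild-type embryos. The share reached from 0.294% to 0.566% for *Kat6a*-/-*Kat6b*+/+, 0.489% to 0.610% for *Kat6a*+/+*Tg(Kat6b)* and 0.374% to 0.458% for *Kat6a*-/-*Tg(Kat6b)*.

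Epsilon-y, the embryonic beta chain that gains ground as primitive cells mature, was measured as *Hbb-y* at 1062, 1701, 1665 and 1257 CPM in wild-type embryos 1 to 4. The *Kat6a*-/-*Kat6b*+/+ embryos had 931, 1523, 1607 and 1787 CPM. Those of *Kat6a*+/+*Tg(Kat6b)* had 1626, 1568, 1622 and 2049 CPM, and those of *Kat6a*-/-*Tg(Kat6b)* had 1316, 1186, 1448 and 1205.5 CPM. Every *Kat6a*-/-*Tg(Kat6b)* embryo was below every *Kat6a*+/+*Tg(Kat6b)* embryo, while wild-type and *Kat6a*-/-*Kat6b*+/+ embryos covered nearly the whole range.

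Zeta, the embryonic alpha-type chain, was measured as *Hba-x* at 1029, 1611, 1424 and 1056 CPM in wild-type embryos. The *Kat6a*-/-*Kat6b*+/+ embryos had 805, 1271, 1292 and 1558 CPM. Those of *Kat6a*+/+*Tg(Kat6b)* had 1410.1, 1374, 1467 and 1579.7 CPM, and those of *Kat6a*-/-*Tg(Kat6b)* had 1179.9, 1049, 1279 and 1086 CPM. The first *Kat6a*-/-*Kat6b*+/+ embryo, from litter 801, was lowest for all 9 genes. Its littermate of the same genotype had 1271 CPM, so embryos of 1 litter and genotype differed by more than the means of any 2 genotypes.

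Beta-h1, the earliest beta-type chain of primitive cells, was measured as *Hbb-bh1* at 1029 ± 214 CPM in wild-type and 1076 ± 256 CPM in *Kat6a*-/-*Kat6b*+/+ embryos (SD, n = 4). It averaged 1194 ± 161 CPM for *Kat6a*+/+*Tg(Kat6b)* and 972 ± 85.8 CPM for *Kat6a*-/-*Tg(Kat6b)*. The alpha gene *Hba-a1* was at 460.0 ± 103, 476 ± 121, 551 ± 51.5 and 386 ± 40.4 CPM for wild type and the other genotypes in that order. The near-identical *Hba-a2* was at 302 ± 56.5, 327 ± 96.3, 365 ± 49.3 and 269 ± 17.1 CPM. *Hba-a2* took 37.8% to 43.9% of the counts of both alpha genes in the 16 embryos. *Hba-a1* was below 430 CPM in every *Kat6a*-/-*Tg(Kat6b)* embryo (345 to 429.6) and above it in every *Kat6a*+/+*Tg(Kat6b)* embryo (496 to 616). The ranges of *Hba-a2* did not overlap either (255 to 292 against 301 to 413), but those of *Hbb-bh1* did (910 to 1098 against 1091 to 1432). For these genes and for *Hbb-y* and *Hba-x*, the share of all genes without overlap between the same groups is not given here. The globins varied together from embryo to embryo, so they are not separate observations.

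**Figure D1:**
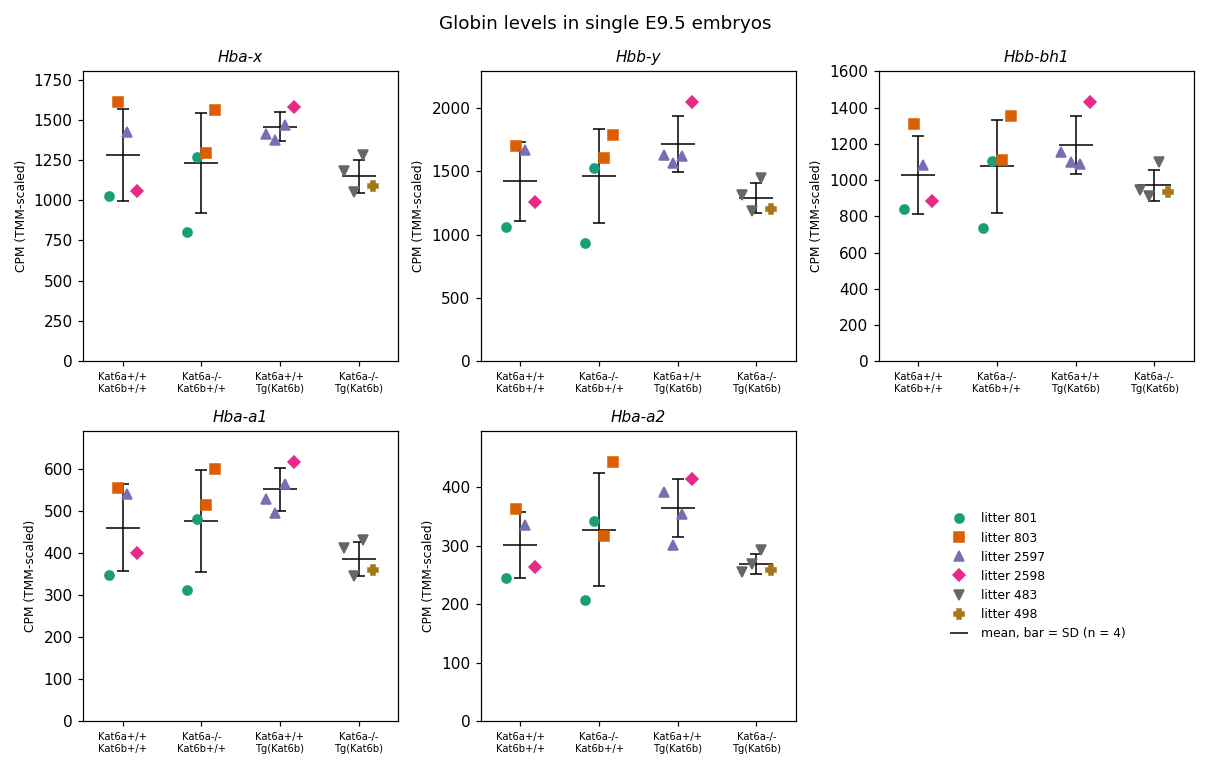
TMM-scaled CPM of the 5 globin genes in 16 single E9.5 embryos, by genotype. Each point is an embryo with its litter as colour and shape, and the bar is the mean with SD (n = 4). Wild-type and *Kat6a*-/-*Kat6b*+/+ embryos span almost the same range (*Hbb-y* 1062 to 1701 and 931 to 1787 CPM). *Kat6a*-/-*Tg(Kat6b)* embryos lie below *Kat6a*+/+*Tg(Kat6b)* embryos for *Hbb-y*, *Hba-x*, *Hba-a1* and *Hba-a2*, while their ranges of *Hbb-bh1* overlap. These groups share no litter, the globins vary together, and the share of all genes without overlap between these groups is not given here.

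The regulators had low counts and a wide spread. *Klf1*, which encodes the activator of globin and red cell membrane genes, was at 7.53, 10.7, 7.68 and 6.52 CPM in wild-type embryos and at 3.98, 7.32, 8.10 and 8.71 CPM in *Kat6a*-/-*Kat6b*+/+ embryos. The *Kat6a*+/+*Tg(Kat6b)* embryos had 6.32, 6.65, 7.59 and 7.68 CPM and those of *Kat6a*-/-*Tg(Kat6b)* had 6.87, 4.36, 8.94 and 5.16 CPM. These values rest on 72 to 309 counts per embryo, and all 4 genotypes overlapped. *Gata1* was at 5.84 ± 0.790 CPM in wild-type embryos, from 59 to 237 counts over all embryos. Its mean was 5.05 ± 1.42 CPM for *Kat6a*-/-*Kat6b*+/+, 5.08 ± 0.795 CPM for *Kat6a*+/+*Tg(Kat6b)* and 5.25 ± 0.228 CPM for *Kat6a*-/-*Tg(Kat6b)*.

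*Epor* was at 5.44, 8.73, 6.21 and 4.94 CPM in wild-type embryos and at 4.65, 6.83, 7.68 and 7.55 CPM in *Kat6a*-/-*Kat6b*+/+ embryos. The *Kat6a*+/+*Tg(Kat6b)* embryos had 7.31, 7.85, 7.92 and 7.82 CPM and those of *Kat6a*-/-*Tg(Kat6b)* had 8.02, 8.76, 8.76 and 7.36 CPM. Of the wild-type embryos, 3 were below all 8 transgenic embryos, and the second was above all but 2 of them.

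*Alas2* was at 34.0, 61.2, 49.6 and 36.3 CPM in wild-type and at 27.8, 47.7, 53.1 and 57.5 CPM in *Kat6a*-/-*Kat6b*+/+ embryos. The *Kat6a*+/+*Tg(Kat6b)* embryos had 45.8, 47.4, 50.7 and 57.6 CPM and those of *Kat6a*-/-*Tg(Kat6b)* had 44.4, 46.7, 49.9 and 43.3 CPM. The genotypes overlapped, and the second wild-type embryo and the first *Kat6a*-/-*Kat6b*+/+ embryo were the highest and the lowest, as for *Klf1* and *Gata1*.

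**Figure D2:**
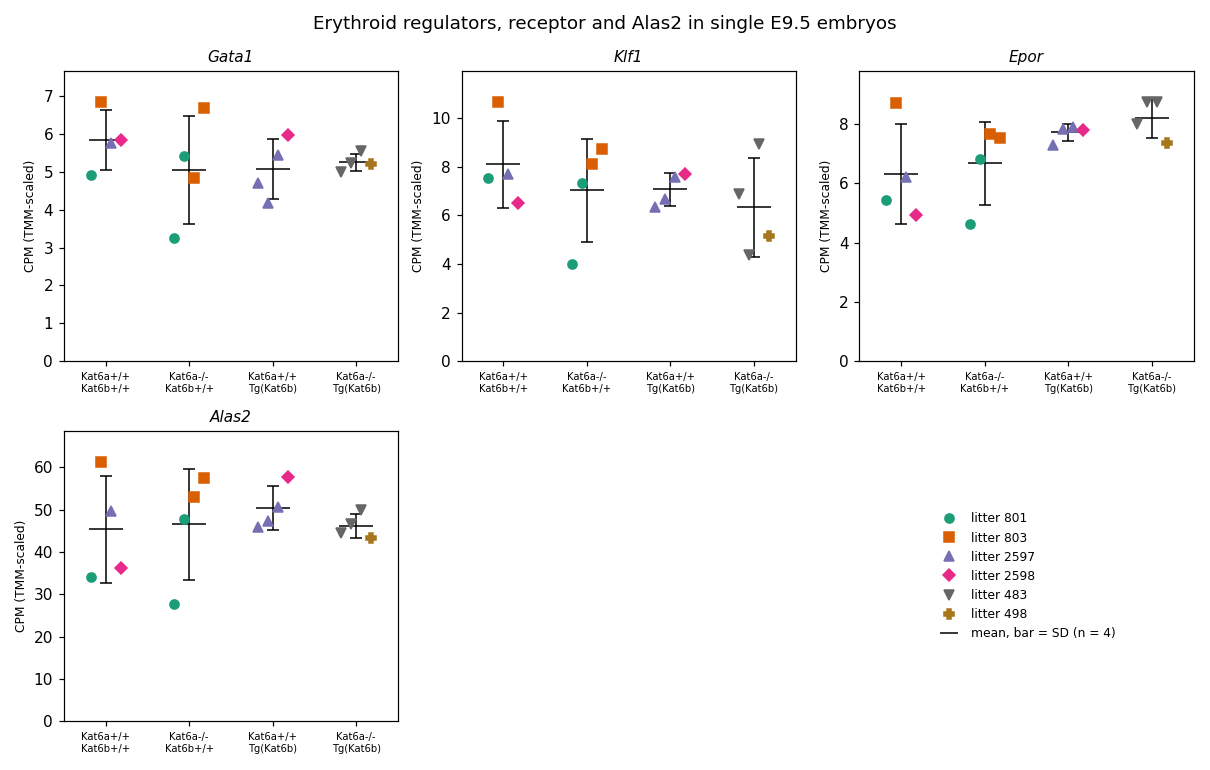
TMM-scaled CPM of *Gata1*, *Klf1*, *Epor* and *Alas2* in 16 single E9.5 embryos, by genotype, with litter as colour and shape and the mean with SD (n = 4). The first *Kat6a*-/-*Kat6b*+/+ embryo is lowest in each panel, and *Epor* has 3 of 4 wild-type embryos (4.94 to 6.21 CPM) below all transgenic embryos (7.31 to 8.76 CPM).

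Genes on the opposite strand overlap some of these exons, and the library kit did not keep strand. Opposite-strand exons covered 52.7% of the exon bases of *Klf1* (by *Gcdh*), 47.1% of *Epor* (by *Swsap1*), 18.3% of *Alas2* (by *Apex2* among others), 7.41% of *Gata1* and 3.75% of *Hbb-bh1*, and none of the other globin members. Considering only each gene's canonical transcript, the overlap was 47.1% for *Epor*, 2.99% for *Alas2* and 0 for *Klf1* and *Gata1*. *Swsap1* was at 12.5 ± 0.525 CPM in wild-type and 11.8 ± 1.68 CPM in *Kat6a*-/-*Tg(Kat6b)* embryos, and its estimated change was -0.07 on the log2 scale (edgeR FDR = 0.848), against 0.35 for *Epor* (edgeR FDR = 0.330). *Gcdh* was estimated at 0.31 in that comparison (edgeR FDR = 0.0925) and *Klf1* at -0.32 (edgeR FDR = 0.497). How the overlaps affect the levels was not tested.

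The question asked of the genotypes was whether loss of KAT6A, which is needed for definitive blood stem cells, came with a change in the genes of primitive red cells at E9.5, and whether extra *Kat6b* altered it. Fold changes are log2 estimates of edgeR's quasi-likelihood fit over all 16 embryos with 2 surrogate variables as covariates, and edgeR FDR is the Benjamini-Hochberg adjusted p over the 15679 genes tested. All 9 genes passed the filter on low counts.

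None of the 9 genes passed edgeR FDR 0.05 in *Kat6a*-/-*Kat6b*+/+ vs. wild-type embryos, where 1.88% of all tested genes did. None had an unadjusted p under 0.05, as 15.2% of tested genes had. The 5 globins had log2 fold changes of -0.06 to 0.11, with 4 of 5 above 0. *Hbb-y* was estimated at 0.03 ± 0.20 (SE, 95% interval -0.42 to 0.48) and *Hba-x* at -0.06 ± 0.18 (-0.47 to 0.34). The intervals of all 9 genes together reached from -0.55 (*Klf1*) to 0.56 (*Hba-a2*), that is from 0.683-fold to 1.48-fold. The estimates were -0.18 for *Klf1*, -0.16 for *Gata1*, 0.10 for *Epor* and 0.05 for *Alas2*.

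For *Kat6a*+/+*Tg(Kat6b)* against wild-type embryos none of the 9 genes passed the threshold either, where 0.14% of tested genes did. All 5 globins were estimated higher, by 0.19 to 0.28 on the log2 scale, with intervals from -0.22 to 0.74. *Epor* was estimated at 0.32 ± 0.15 (95% interval 0.02 to 0.63, edgeR FDR = 0.387). It was the 1 gene of 9 with an unadjusted p under 0.05, a level reached by 11.5% of all tested genes.

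*Kat6a*-/-*Tg(Kat6b)* embryos were compared with each of the other genotypes. Against wild-type embryos none of the 9 genes passed the threshold (0.67% of tested genes did). *Epor* was estimated at 0.35 ± 0.15 (95% interval 0.04 to 0.65, edgeR FDR = 0.330) and was again the 1 gene of 9 with an unadjusted p under 0.05 (12.7% of tested genes). The globins were at -0.20 to -0.08 and *Klf1* at -0.32 (edgeR FDR = 0.497). Without the second wild-type embryo, the highest of its group, *Epor* was at 0.64 with edgeR FDR = 0.0382, past the threshold. Leaving out the highest embryo of the reference group raises the estimate by construction. The same omission brought the further erythroid genes called in this comparison, described below, from 0 to 2. The share of all tested genes called in that fit is not given here. For *Kat6a*+/+*Tg(Kat6b)* against wild type, the values of *Epor* with each embryo left out lay between 0.23 and 0.49, and no embryo left out brought it past the threshold.

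Against *Kat6a*-/-*Kat6b*+/+ embryos none of the 9 genes passed the threshold, where 7.14% of tested genes did, nor an unadjusted p of 0.05, which 23.2% did, and the globins were at -0.27 to -0.07. Against *Kat6a*+/+*Tg(Kat6b)* embryos, where 3.41% of tested genes were called and 18.9% had an unadjusted p under 0.05, none of the 9 reached either level, but the globin estimates were the lowest of any comparison, at -0.45 for *Hba-a1* (95% interval -0.91 to 0.01, edgeR FDR = 0.275), -0.44 for *Hba-a2*, -0.35 for *Hbb-y*, -0.33 for *Hba-x* and -0.30 for *Hbb-bh1*. The 4 other genes were at -0.14 to 0.08 there. The test of whether KAT6A loss acted differently with the transgene called none of the 9 (0.153% of tested genes) and gave none an unadjusted p under 0.05 (14.6% of tested genes), with differences of log2 fold changes of -0.55 to -0.27 for the globins and a smallest edgeR FDR of 0.429. These comparisons share groups of embryos and are not independent of each other.

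**Figure D3:**
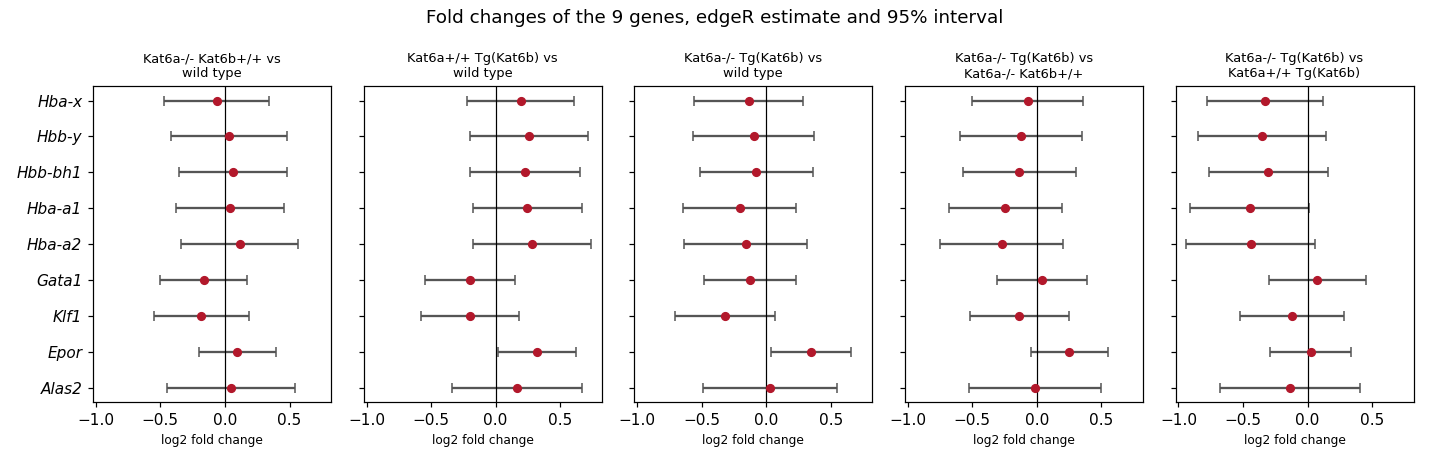
Log2 fold change of each of the 9 genes (point) with its 95% interval (line) from edgeR in 5 comparisons of genotypes, 4 embryos each. All intervals cross 0 except those of *Epor* in *Kat6a*+/+*Tg(Kat6b)* (0.02 to 0.63) and *Kat6a*-/-*Tg(Kat6b)* embryos (0.04 to 0.65) vs. wild type, and no gene passed edgeR FDR 0.05.

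Dividing 1 globin by another within an embryo removes the blood content that they share. The log2 ratio of zeta to alpha RPKM, *Hba-x* over the sum of *Hba-a1* and *Hba-a2*, was 0.70, 0.71, 0.60 and 0.57 in wild-type embryos and 0.53, 0.53, 0.54 and 0.48 in *Kat6a*-/-*Kat6b*+/+ embryos. All 4 *Kat6a*-/-*Kat6b*+/+ embryos were below all wild-type embryos, with a mean difference of -0.13 on the log2 scale, a ratio 0.916 times that of wild type (two-sided exact permutation test p = 0.0286, adjusted p = 0.0952 over 10 tests). With 4 embryos against 4 no smaller p than 0.0286 can be reached, and after adjustment the difference did not pass 0.05.

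Within litters the direction was the same. In litter 801 the wild-type embryo had 0.70 and both *Kat6a*-/-*Kat6b*+/+ embryos 0.53, and in litter 803 the wild-type embryo had 0.71 against 0.54 and 0.48. The wild-type embryos of litters 2597 and 2598 had 0.60 and 0.57, so the 4 wild-type embryos, each of its own litter, spanned 0.57 to 0.71. Litters 801 and 803 gave male wild-type embryos and litters 2597 and 2598 female wild-type embryos, so sex and litter cannot be told apart among them. The *Kat6a*-/-*Kat6b*+/+ embryos were female in litter 801 and male in litter 803. Within litter 801, genotype and sex therefore cannot be told apart.

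*Kat6a*+/+*Tg(Kat6b)* embryos had zeta to alpha log2 ratios of 0.52, 0.69, 0.58 and 0.52, and *Kat6a*-/-*Tg(Kat6b)* embryos of 0.73, 0.67, 0.72 and 0.71. Every *Kat6a*-/-*Tg(Kat6b)* embryo was above every *Kat6a*-/-*Kat6b*+/+ embryo (difference 0.19, exact permutation p = 0.0286, adjusted p = 0.0952). Both comparisons use the same *Kat6a*-/-*Kat6b*+/+ embryos. The difference from *Kat6a*+/+*Tg(Kat6b)* embryos was 0.13 (exact permutation p = 0.0571, adjusted p = 0.143), and that from wild-type embryos 0.06 (exact permutation p = 0.200, adjusted p = 0.333). With *Hba-a2* alone as the denominator, the differences of *Kat6a*-/-*Kat6b*+/+ embryos from wild-type and from *Kat6a*-/-*Tg(Kat6b)* embryos both had an exact permutation p of 0.0571, and with *Hba-a1* alone the first had 0.0857.

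The log2 ratio of beta-h1 to epsilon-y, the other ratio that falls as primitive cells mature, did not pass the test in *Kat6a*-/-*Kat6b*+/+ vs. wild-type embryos. It was -0.31, -0.36, -0.60 and -0.49 in wild-type embryos and -0.32, -0.44, -0.51 and -0.38 in *Kat6a*-/-*Kat6b*+/+ embryos (difference 0.03, exact permutation p = 0.771, adjusted p = 0.771). Within litters 801 and 803 the sign was the other way, -0.08 on average. *Kat6a*-/-*Tg(Kat6b)* embryos had -0.45, -0.36, -0.38 and -0.35, all above the -0.47, -0.49, -0.55 and -0.50 of *Kat6a*+/+*Tg(Kat6b)* embryos (difference 0.12, exact permutation p = 0.0286, adjusted p = 0.0952). These groups came from different litters, and the adjusted p did not pass 0.05.

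**Figure D4:**
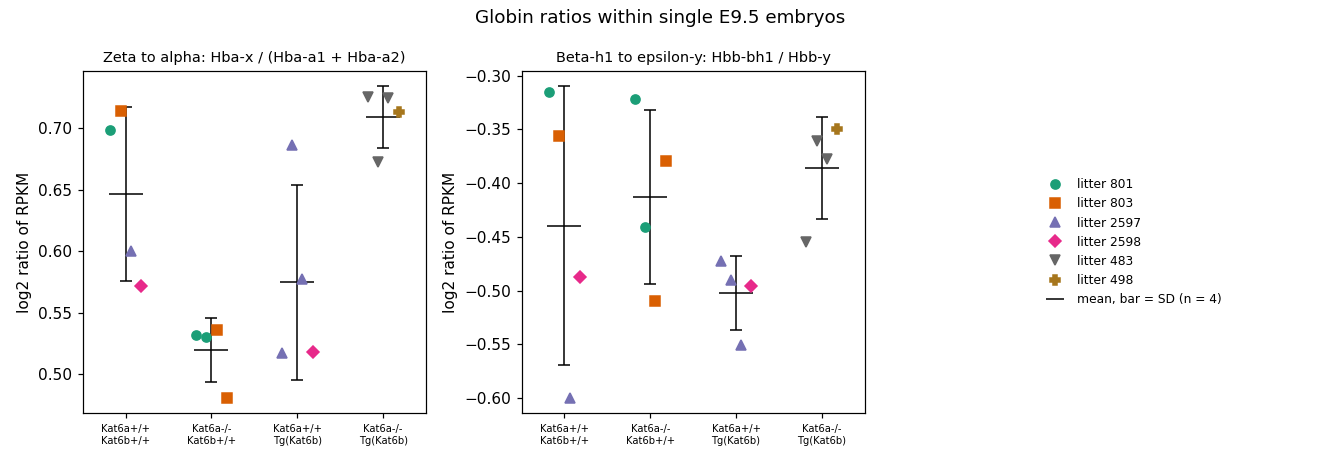
Log2 ratio of zeta to alpha (left) and of beta-h1 to epsilon-y (right), from RPKM within each of 16 embryos, by genotype, with litter as colour and shape and the mean with SD (n = 4). On the left, the 4 *Kat6a*-/-*Kat6b*+/+ embryos (0.48 to 0.54) lie below all wild-type (0.57 to 0.71) and all *Kat6a*-/-*Tg(Kat6b)* embryos (0.67 to 0.73).

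Alpha-type and beta-type mRNA were close to balance. The summed RPKM of *Hbb-y* and *Hbb-bh1* was 1.08 to 1.27 times that of *Hba-x*, *Hba-a1* and *Hba-a2* in all 16 embryos. The mean was 1.14 ± 0.0279 in wild-type embryos (SD, n = 4). The other means were 1.19 ± 0.0290 for *Kat6a*-/-*Kat6b*+/+, 1.16 ± 0.0784 for *Kat6a*+/+*Tg(Kat6b)* and 1.19 ± 0.0191 for *Kat6a*-/-*Tg(Kat6b)*. The levels themselves differed 1.95-fold (*Hbb-bh1*) to 2.20-fold (*Hbb-y*) between the lowest and the highest embryo.

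The adult beta globins *Hbb-bs* and *Hbb-bt*, the beta chains of definitive red cells, were present at low levels. They are described here because of their values, which were seen first. *Hbb-bs* was at 3.53, 5.58, 12.3 and 7.89 CPM in wild-type and at 6.75, 11.7, 14.4 and 14.7 CPM in *Kat6a*-/-*Kat6b*+/+ embryos. The *Kat6a*+/+*Tg(Kat6b)* embryos had 10.3 to 11.1 CPM and those of *Kat6a*-/-*Tg(Kat6b)* 7.21 to 8.43 CPM. In *Kat6a*-/-*Kat6b*+/+ vs. wild-type embryos the estimate was 0.77 ± 0.28 for *Hbb-bs* (edgeR FDR = 0.213) and 0.80 ± 0.27 for *Hbb-bt* (edgeR FDR = 0.168), so neither passed the threshold.

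The wild-type embryos of the litters that gave the mutants, 801 and 803, were the lowest of all 16 for *Hbb-bs*. In a fit blocked by litter, which kept the 12 embryos of the shared litters, the estimate was 1.40 ± 0.21 for *Hbb-bs* (edgeR FDR = 0.0306) and 1.37 ± 0.28 for *Hbb-bt* (edgeR FDR = 0.0924). The count of all genes called in that fit was 18, against 295 without the block. Only litters 801 and 803 held both genotypes, with 1 wild-type embryo each, so that estimate rests on the 2 wild-type embryos lowest for *Hbb-bs*. In litter 801 the wild-type embryo was male and both *Kat6a*-/-*Kat6b*+/+ embryos were female. Adult genes made 0.267% to 0.639% of beta-type RPKM in wild-type embryos. The share reached from 0.559% to 0.728% for *Kat6a*-/-*Kat6b*+/+, 0.442% to 0.563% for *Kat6a*+/+*Tg(Kat6b)* and 0.380% to 0.491% for *Kat6a*-/-*Tg(Kat6b)*. *Hbb-bs* and *Hbb-bt* share 60.9% and 57.1% of their windows of 66 bases with each other, so their split is uncertain, and 19.7% of the exon bases of *Hbb-bs* lie opposite another gene.

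The levels of the 9 genes varied together from embryo to embryo. Over the 16 embryos the log2 CPM of *Hbb-y* correlated with *Hba-a1* at Pearson r = 0.974 (permutation p = 1e-05, adjusted p = 2e-05 over 10 relations, the smallest that 100000 permutations can give, Spearman rho = 0.979). The correlation was 0.964 with *Hba-x* (rho = 0.974), 0.964 with *Hbb-bh1* (rho = 0.897), 0.933 with *Hba-a2* (rho = 0.932) and 0.893 with *Alas2* (rho = 0.853), with the same permutation p of r. It was 0.696 with *Klf1* (permutation p = 0.0031, adjusted p = 0.00443, rho = 0.671), 0.612 with *Gata1* (permutation p = 0.0121, adjusted p = 0.0134, rho = 0.559) and 0.568 with *Epor* (permutation p = 0.022, adjusted p = 0.022, rho = 0.238 with permutation p = 0.376).

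The first wild-type and the first *Kat6a*-/-*Kat6b*+/+ embryo were farthest from the median of *Hbb-y*, both low. Without them r was still 0.940 to 0.971 for *Hba-x*, *Hbb-bh1* and *Hba-a1*, 0.900 for *Hba-a2*, 0.774 for *Alas2* and 0.683 for *Klf1*. It fell to 0.317 for *Gata1* and 0.146 for *Epor*, so the correlations of these genes taken across genotypes depend on those embryos. Values across genotypes also hold differences between genotype means. With all 16 embryos taken as deviations from the genotype mean, *Hbb-y* correlated with *Gata1* at 0.855 and with *Epor* at 0.799. Taken as deviations from the genotype mean, all pairs of globins correlated at 0.914 to 0.982 and the globins with the other 4 genes at 0.707 to 0.967. Taken as deviations from the litter mean over 15 embryos, *Hbb-y* correlated with the other globins at 0.886 to 0.978, with *Alas2* at 0.947, with *Epor* at 0.790, with *Klf1* at 0.599 and with *Gata1* at 0.537. All points share the library and the blood content of the embryo.

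**Figure D5:**
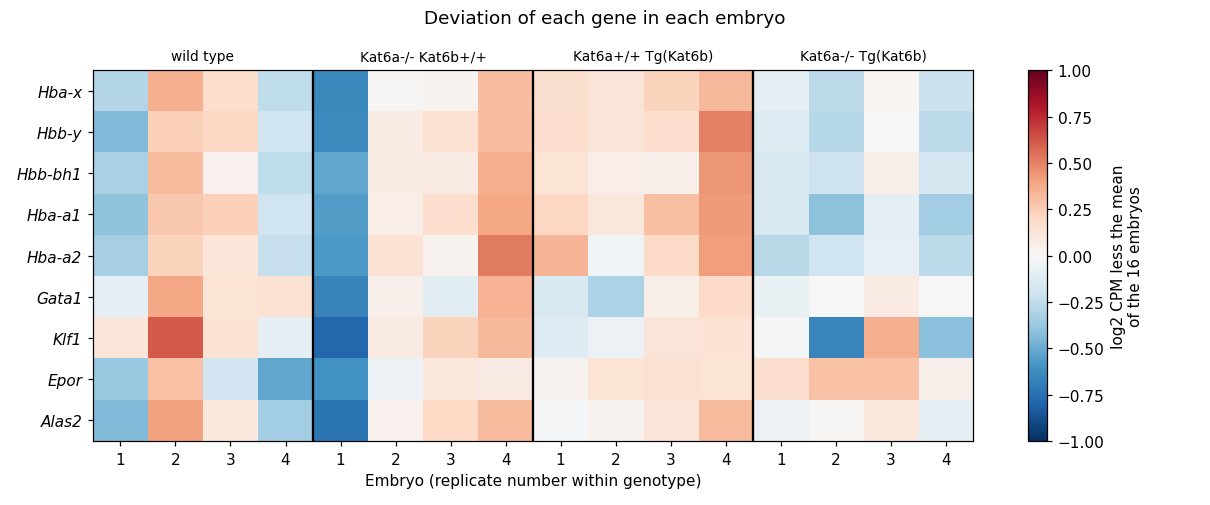
Log2 CPM of each of the 9 genes in each embryo less the mean of that gene over the 16 embryos, with columns grouped by genotype and numbered by replicate. The first *Kat6a*-/-*Kat6b*+/+ embryo is low for every gene (-0.52 to -0.79) while the other 3 embryos of that genotype lie between -0.11 and 0.52.

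The spread between embryos of a genotype was large for transcripts this abundant. The within-genotype SD of log2 CPM was 0.26 to 0.29 for the 5 globins, against a median of 0.0565 over 655 abundant genes (mean log2 CPM of 8 or more), and it exceeded that of 98.0% to 98.9% of those genes. For *Alas2* it was 0.32, for *Klf1* 0.38, for *Gata1* 0.26 and for *Epor* 0.25, against a median of 0.12 over all 15679 genes tested.

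Most of the genes whose levels followed the 9 most closely are known from red cells. Among 14030 other genes whose mean log2 CPM was not below 0, the deviation from the genotype mean was correlated with the mean standardised deviation of the 9 genes over the 16 embryos. The highest was *Slc4a1*, the band 3 anion exchanger of the red cell membrane, at r = 0.952. *Acp5* (0.940), a phosphatase gene, and *Slc25a37* (0.932), the mitochondrial iron importer mitoferrin, were also among the highest. Others were the blood group genes *Ermap* (0.931) and *Kel* (0.910), *Fech* (0.909), the last enzyme of haem synthesis, *Ank1* (0.907), the ankyrin of the membrane skeleton, *Grap2* (0.904), an adaptor gene, and *Ahsp* (0.903), the chaperone of free alpha globin. *Slc4a1* itself was at 80.1 to 143 CPM in wild-type and 62.5 to 131 CPM in *Kat6a*-/-*Kat6b*+/+ embryos.

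By list, 15 of 19 genes of the red cell membrane and its skeleton had r above 0.7, as had 3 of 10 red cell enzymes and carriers, 3 of 16 erythroid regulators (*Tal1* 0.859, *Gfi1b* 0.753, *Ikzf1* 0.888), 2 of 8 genes of iron supply and 1 of 11 of haem synthesis. Over all 14030 genes it was 108. The medians of r were 0.864, 0.477, 0.258, 0.511 and 0.387 in that order. None of the 4 macrophage, 3 megakaryocyte, 10 endothelial, 5 yolk sac endoderm and 10 embryo body markers that could be compared had such a value.

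Of 74 further erythroid genes present in the files, 70 passed the filter and were tested. By edgeR none was called against wild-type embryos, whether for *Kat6a*-/-*Kat6b*+/+, *Kat6a*+/+*Tg(Kat6b)* or *Kat6a*-/-*Tg(Kat6b)*. Their median log2 fold changes were, in that order, -0.02, 0.08 and -0.02, beside 0.0033, 0.0016 and -0.0031 over all tested genes. At an unadjusted p under 0.05 there were 13 (6 higher, 7 lower), 5 (all higher) and 12 (4 higher, 8 lower) of the 70, where 15.2%, 11.5% and 12.7% of all tested genes reached that level. DESeq2 called 3 in the first comparison, 0 in the second and 1 in the third, among 416, 219 and 244 genes that it called in all.

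When *Kat6a*-/-*Tg(Kat6b)* embryos were compared with those of *Kat6a*-/-*Kat6b*+/+, 4 of the 70 were called, 2 in each direction, beside 3.39% of all tested genes higher and 3.74% lower. *Cbfa2t3*, a corepressor gene of the GATA1 and TAL1 complex, rose by 0.42 ± 0.09 (at least 12.4 against at most 10.6 CPM, edgeR FDR = 0.00767), and *Mxi1*, a MYC antagonist gene, rose by 0.21 ± 0.06 (39.1 to 44.3 against 32.3 to 39.5 CPM, edgeR FDR = 0.0402). The ferritin light chain gene *Ftl1* fell by 0.26 ± 0.06 (337 to 347 against 384 to 422 CPM, edgeR FDR = 0.0123), and *Prdx2*, an antioxidant enzyme gene abundant in red cells, fell by 0.14 ± 0.04 (edgeR FDR = 0.0449). The count was 2 when embryo 4 of *Kat6a*-/-*Kat6b*+/+ or embryo 2, 3 or 4 of *Kat6a*-/-*Tg(Kat6b)* was left out. The share of all tested genes called with those embryos left out is not given here. From embryo to embryo these 4 had r of -0.201 to 0.242 with the 9 genes.

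Compared with *Kat6a*+/+*Tg(Kat6b)* embryos, *Kat6a*-/-*Tg(Kat6b)* embryos had 2 of the 70 called, beside 2.28% of all tested genes higher and 1.14% lower. The transferrin receptor gene *Tfrc* rose by 0.24 ± 0.06 (268 to 306 against 215 to 252 CPM, edgeR FDR = 0.0327), and *Urod*, an enzyme of haem synthesis, fell by 0.17 ± 0.05 (54.4 to 58.1 against 61.3 to 63.2 CPM, edgeR FDR = 0.0468). Both calls were lost on leaving out any 1 of 8 embryos, namely embryo 2 or 3 of *Kat6a*-/-*Kat6b*+/+, embryo 1 or 2 of *Kat6a*+/+*Tg(Kat6b)* or any embryo of *Kat6a*-/-*Tg(Kat6b)*. The count was 1 without embryo 4 of *Kat6a*-/-*Kat6b*+/+ or of *Kat6a*+/+*Tg(Kat6b)*, 4 without wild-type embryo 1 and 5 without wild-type embryo 2, and 1 without surrogate variables. The share of all tested genes called in those other fits is not given here. Of the 22 membrane and skeleton genes, none was called in any of the 5 comparisons.

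Markers of other blood and vessel cells were examined beside these results. Macrophage markers summed to 5.58 to 11.7 CPM in wild-type embryos and to 11.0 to 23.0 CPM for *Kat6a*-/-*Kat6b*+/+, and 7 of 9 tested rose there by edgeR (0.944% of all tested genes were called higher). The sums were 4.86 to 6.78 CPM for *Kat6a*+/+*Tg(Kat6b)* and 6.93 to 12.9 CPM for *Kat6a*-/-*Tg(Kat6b)*. Megakaryocyte markers summed to 10.2 to 19.0 CPM in all 16 embryos with none of 9 called in that comparison, and endothelial markers to 478 to 568 CPM with 1 of 10 called. When *Kat6a*-/-*Tg(Kat6b)* was compared with *Kat6a*-/-*Kat6b*+/+, 3 of 9 macrophage markers fell (*C1qb*, *C1qc* and *Mrc1*) and, of 10 endothelial markers, *Tek* rose and *Cldn5* fell. Of all tested genes, 3.39% were called higher and 3.74% lower in that comparison. Against *Kat6a*+/+*Tg(Kat6b)* embryos, where the globin estimates were lowest, 2.28% of all tested genes were called higher. There 2 of 9 macrophage markers, *Mrc1* (1.15, edgeR FDR = 0.0201) and *Csf1r* (1.07, edgeR FDR = 0.0475), rose on the log2 scale. Of 10 endothelial markers, *Cdh5* (0.23, edgeR FDR = 0.00900) and *Tie1* (0.22, edgeR FDR = 0.0367) rose. The part of these cells in the erythroid levels was not tested.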

How the data were processed

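Paired-end RNA-seq libraries, made with a kit that keeps no strand, came from 16 single whole embryos at E9.5. The authors deposited raw read counts per gene, made with featureCounts on mm39 per the labels' processing notes. The annotation release, strand setting and treatment of multi-mapped reads are not given in the sources used here. Genes were kept with edgeR's filterByExpr (minimum count 10, minimum total 15), which left 15679 of 26411, and scaled by TMM (factors 0.985 to 1.02). Surrogate variables were estimated with sva 3.50.0 (20 permutations, 2 kept). edgeR 4.0.16 (robust quasi-likelihood, R 4.3.3, limma 3.58.1) tested 5 comparisons and their interaction over all 16 embryos, with Benjamini-Hochberg FDR 0.05 over all tested genes. Log2 CPM used a prior count of 2. Globin ratios were compared with two-sided exact permutation tests (scipy 1.17.1), adjusted over 10 tests. Scripts were tested on simulated data. Nothing in the sources says whether the numbered embryos of a genotype are paired, and p-values measure the spread between single embryos. No pair of embryos of a genotype agreed within sampling noise (chi-square per degree of freedom 1.83 or more). Besides the 9 genes, the text names erythroid list genes past FDR 0.05 in any comparison (at most 10), the 10 genes most correlated with the 9 (1 of them is not reported here), defining markers of other cell types, and opposite-strand or adult globin genes named after their values were seen. The 9 genes and all lists were chosen with earlier results of these data known. Alternatives covered DESeq2 1.42.0, other scalings, covariates and filters, litter and replicate blocks and leaving out each embryo. Counting precision follows from 59 counts or more per member and embryo.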

Additional observations from a re-analysis of the deposited data

Results flagged for a closer look

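Of 44 sets of 4 embryos examined, 3 had 1 embryo far from the other 3, and chance gives about 1 in 20. The fourth *Kat6a*+/+*Tg(Kat6b)* embryo, the only 1 of that genotype from litter 2598, was highest for *Hbb-y* (2049 CPM against 1568 to 1626), with its gap to the nearest embryo 0.864 of the range on the log2 scale. The first *Kat6a*+/+*Tg(Kat6b)* embryo was lowest for *Epor* (7.31 CPM against 7.82 to 7.92), with a gap of 0.84 of the range. The fourth *Kat6a*-/-*Kat6b*+/+ embryo had the lowest log2 zeta to alpha ratio of its genotype (0.48 against 0.53 to 0.54), with a gap of 0.907 of the range.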

How the results depend on the processing

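Over settings other than leaving out an embryo, 558 values kept their direction and side of the threshold, 14 reversed, 14 counts moved by over 1.5 times, and the cause was not tested. Another 6 globin ratio differences went from an unadjusted exact p under 0.05 to one above it and 1 went the other way, though none had passed 0.05 after adjustment. Reversed estimates were all of uncalled changes. Without the filter on low counts, *Hba-a1* (-0.018), *Hbb-y* (-0.043) and *Alas2* (-0.038) reversed in *Kat6a*-/-*Kat6b*+/+ vs. wild type, *Alas2* in *Kat6a*-/-*Tg(Kat6b)* vs. wild type (-0.0070) and vs. *Kat6a*-/-*Kat6b*+/+ (0.031), and the *Epor* interaction (0.034). The litter block gave *Epor* -0.050 in the first comparison. *Alas2* in *Kat6a*-/-*Tg(Kat6b)* vs. *Kat6a*-/-*Kat6b*+/+ was 0.0073 by DESeq2, and the *Klf1* interaction was -0.041 with 1 surrogate variable and -0.016 with sex. Within litters the beta-h1 to epsilon-y difference was -0.077 for *Kat6a*-/-*Kat6b*+/+ and 0.044 for *Kat6a*+/+*Tg(Kat6b)* vs. wild type.

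Deviations of same-numbered embryos correlated at -0.255 to 0.215 over 24 pairs, 10 of them over 0.1. Such correlations cannot decide whether the replicate numbers pair the embryos. With the replicate block *Alas2* was 0.0094 in *Kat6a*-/-*Tg(Kat6b)* vs. *Kat6a*-/-*Kat6b*+/+ and the *Epor* interaction 0.0025. Paired by number, the zeta to alpha differences were -0.13 and 0.19 and the beta-h1 to epsilon-y difference 0.12, each with an exact sign-flip p of 0.125, the smallest that 4 pairs allow. With the block 1 erythroid list gene was called in *Kat6a*-/-*Kat6b*+/+ vs. wild type and 1 in *Kat6a*-/-*Tg(Kat6b)* vs. *Kat6a*+/+*Tg(Kat6b)*. The share of all genes called with the block is not given here.

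Called erythroid list genes in *Kat6a*-/-*Kat6b*+/+ vs. wild type were 1 without the filter, 1 with the litter block and 3 by DESeq2. In *Kat6a*-/-*Tg(Kat6b)* embryos DESeq2 called 1 vs. wild type, 7 vs. *Kat6a*+/+*Tg(Kat6b)* and 2 for the interaction. How many of all genes DESeq2 called vs. *Kat6a*+/+*Tg(Kat6b)* and for the interaction is not given here. The 7 and the 2 therefore cannot be read against a background. Against *Kat6a*-/-*Kat6b*+/+ there were 2 with 1 surrogate variable, without the filter or with sex. Against *Kat6a*+/+*Tg(Kat6b)* there was 1 without surrogate variables, with DESeq2 size factors or without globins in the library sizes. For the settings other than DESeq2 and the litter block, the share of all genes called is not given here either. With *Hba-a1* alone the zeta to alpha difference of *Kat6a*-/-*Kat6b*+/+ from wild type was -0.11 and that of *Kat6a*-/-*Tg(Kat6b)* from *Kat6a*+/+*Tg(Kat6b)* 0.17 (exact p = 0.0286). With *Hba-a2* alone it was -0.15 from wild type and 0.17 between *Kat6a*-/-*Tg(Kat6b)* and *Kat6a*-/-*Kat6b*+/+.

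Leaving out each embryo in turn gave these lowest and highest log2 values. In *Kat6a*-/-*Kat6b*+/+ vs. wild type they were -0.17 and 0.14 for *Hba-x*, -0.094 and 0.24 for *Hba-a1*, -0.045 and 0.27 for *Hba-a2*, -0.048 and 0.26 for *Hbb-bh1*, -0.10 and 0.24 for *Hbb-y*, -0.30 and 0.041 for *Klf1* and -0.089 and 0.31 for *Alas2*. In *Kat6a*-/-*Tg(Kat6b)* vs. wild type they were -0.26 and 0.12 for *Hba-x*, -0.35 and 0.041 for *Hba-a1*, -0.28 and 0.025 for *Hba-a2*, -0.18 and 0.19 for *Hbb-bh1*, -0.24 and 0.17 for *Hbb-y*, -0.22 and 0.073 for *Gata1* and -0.12 and 0.38 for *Alas2*. Against *Kat6a*-/-*Kat6b*+/+ they were -0.25 and 0.026 for *Hba-x*, -0.13 and 0.20 for *Gata1* and -0.22 and 0.078 for *Alas2*, and against *Kat6a*+/+*Tg(Kat6b)* -0.10 and 0.15 for *Epor* and -0.24 and 0.0048 for *Alas2*. The interaction was -0.23 to 0.030 for *Epor* and -0.10 to 0.19 for *Klf1*. The zeta to alpha differences of *Kat6a*-/-*Kat6b*+/+ from wild type were -0.15 to -0.10 and those of *Kat6a*-/-*Tg(Kat6b)* from *Kat6a*-/-*Kat6b*+/+ 0.18 to 0.20. For beta-h1 to epsilon-y these were -0.027 to 0.068, -0.0051 to 0.057 and, for *Kat6a*-/-*Tg(Kat6b)* from *Kat6a*+/+*Tg(Kat6b)*, 0.10 to 0.14, where 3 against 4 embryos cannot reach an exact p under 0.05. Called erythroid list genes numbered 0 to 2 in *Kat6a*-/-*Kat6b*+/+ vs. wild type. In *Kat6a*-/-*Tg(Kat6b)* embryos they numbered 0 to 2 vs. wild type, 2 to 6 vs. *Kat6a*-/-*Kat6b*+/+ and 0 to 5 vs. *Kat6a*+/+*Tg(Kat6b)*, and 0 to 1 of the 9 genes were called in *Kat6a*-/-*Tg(Kat6b)* vs. wild type. The shares of all genes called with an embryo left out are not given here, so these counts cannot be read against a background.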
